A study of Mus musculus with 18 samples.

Results

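The small leucine-rich proteoglycans and versican are secreted core proteins of the extracellular matrix, most of which carry glycosaminoglycan chains. They were taken by gene name and made up 9 of the 30172 genes with deposited values. Decorin (Dcn), biglycan (Bgn) and asporin (Aspn) belong to class I of the small leucine-rich proteoglycans, and lumican (Lum), fibromodulin (Fmod), PRELP (Prelp) and osteomodulin (Omd) to class II. Osteoglycin (Ogn) belongs to class III, and versican (Vcan) is a large proteoglycan that binds hyaluronan.

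Ovaries of F1 females, wild-type C57BL/6J mice, were profiled whole by poly-A RNA-seq on day 3, 7 or 21 after birth (Pd3, Pd7 and Pd21). Dams of the F1-HHcy groups ate a diet with 3% methionine, which is used to raise blood homocysteine, from before mating until the end of lactation. The labels give 4 weeks on the diet before mating, while the study's methods give 6 weeks. F1-Control dams received normal chow, which the study's methods describe as a standard diet supplemented with less methionine. The pups themselves were not treated. Each of the 6 groups held 3 libraries, 18 in all. Batch 1 of the labels holds the Pd3 and Pd7 libraries and batch 2 those of Pd21. Between Pd21 and the earlier days, age and batch therefore cannot be told apart. Nothing in the labels says whether replicates came from separate animals or pools, so the p-values measure only the spread between these libraries, which may be technical. As a check of the tissue label, 8 oocyte markers, led by Zp2 in mean level, summed to between 665 and 2069 FPKM (fragments normalised to transcript length and library size) in every library. The 8 granulosa cell markers, led by Inha in mean level, summed to between 264 and 1413 FPKM.

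Small leucine-rich proteoglycans bind fibrillar collagens through a curved repeat domain and govern how fibrils grow in width and pack together, and several of them also bind TGF-beta. Versican carries chondroitin sulfate chains, links hyaluronan to cells and other matrix proteins, and is cleaved by ADAMTS proteases. In the ovary these proteins lie in the stroma and the theca around follicles, and versican is also part of the matrix around the cumulus cells.

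The deposited values were read as FPKM, and 1 fragment on a transcript of 1 kb equalled between 0.0254 and 0.0297 FPKM. Fragments assigned to genes numbered 33630304 to 39398922 per library. The least counted of the 9 genes, Omd in F1-Control at Pd3, still rested on at least 55 fragments in each library. Diet groups were compared within each day with limma on log2(FPKM + 1), a scale that understates the changes of genes near or below 1 FPKM. A gene is called below when its Benjamini-Hochberg adjusted p, over every gene tested in that comparison, was under 0.05. All 9 genes passed the filter of 1 FPKM in 3 libraries in every fit. In whole ovary, fewer cells of a type and less RNA per cell cannot be told apart.

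**Figure D1:**
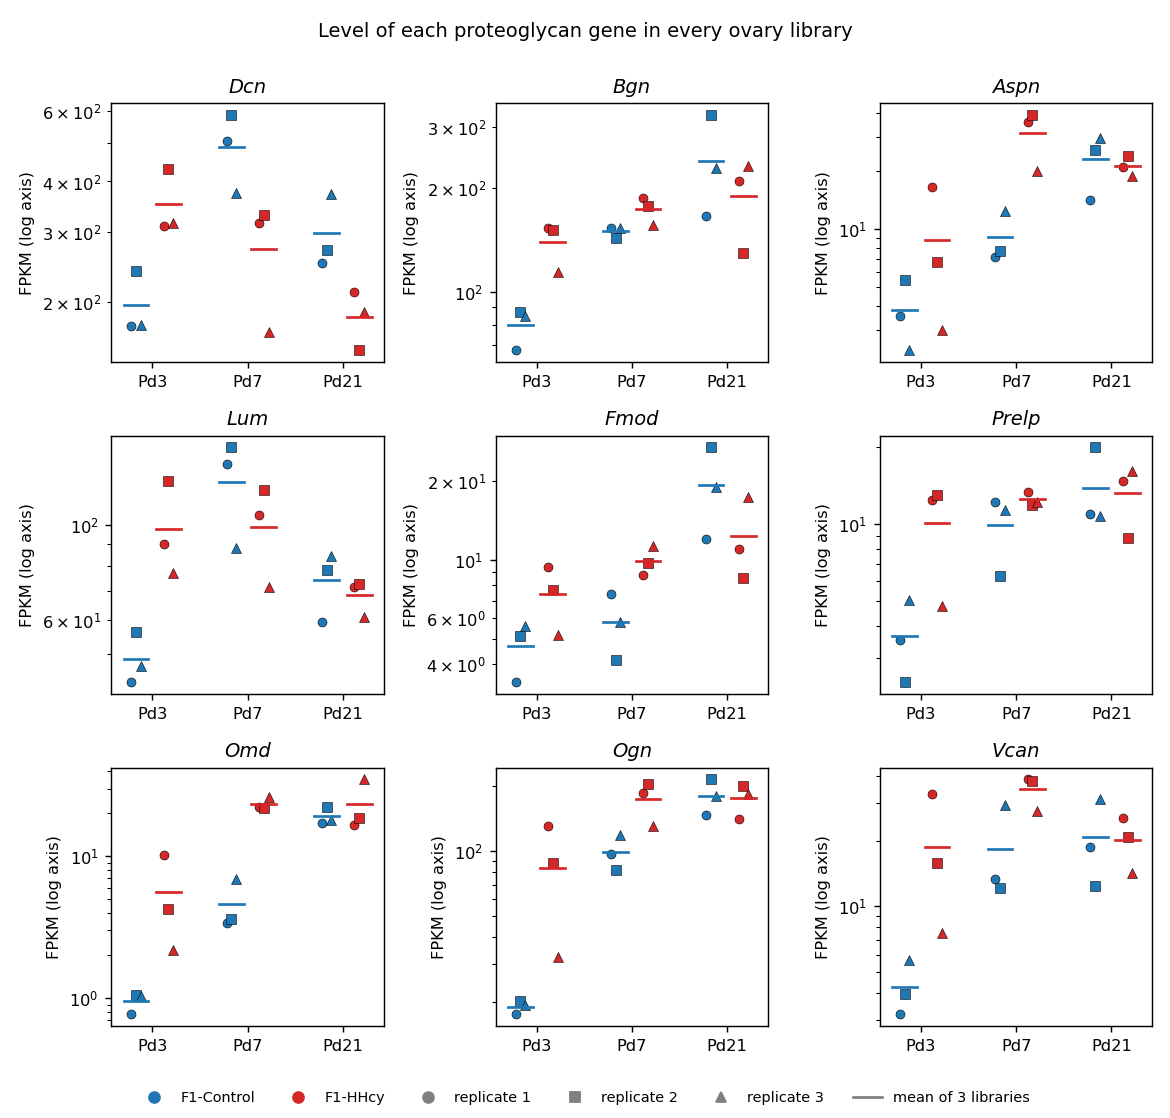
FPKM on a log axis of the 9 proteoglycan genes in each of the 18 libraries, grouped by diet and day, with the bar at the group mean. Omd spans 0.766 to 34.8 FPKM, and at Pd7 its 3 F1-HHcy libraries (22 to 26.1) sit clear of the 3 F1-Control libraries (3.37 to 6.85).

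Per length, Dcn was the most abundant of the 9 genes in 5 of the 6 groups, with a mean of 487 ± 107 FPKM (SD, n = 3) in F1-Control at Pd7. Bgn led in F1-HHcy at Pd21, where its mean of 190 ± 54 FPKM lay next to 184 ± 30 FPKM for Dcn, a gap smaller than either spread. Omd was the least abundant in F1-Control at Pd3 and Pd7 and in F1-HHcy at Pd3. The summed level of the 9 genes in F1-Control was 362 ± 53.3 FPKM at Pd3 and 909 ± 99.5 FPKM at Pd7. In F1-HHcy it was 722 ± 145 FPKM at Pd3 and 830 ± 178 FPKM at Pd7, so the Pd3 level with the maternal diet lay between both control days.

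At Pd3, all 9 genes had a higher mean in F1-HHcy than in F1-Control. Lum and Bgn were called, 2 of 9 against 3.07% of the 13277 genes tested (1.64% called higher), and limma-voom on recovered fragments also called 2. The libraries did not overlap for 6 of the genes, Dcn, Lum, Bgn, Ogn, Omd and Vcan, all higher, against 11.8% of all genes higher without overlap and 27.9% in either direction. The median log2 fold change of the 9 genes was 0.97, beside -0.031 over all genes tested. The study's own criterion asks for a log2 fold change beyond 0.58 in either direction with an unadjusted p below 0.05, and put on the limma values here, where the study used DESeq2, it was met by 7 of 9, against 9.74% of all genes. Replicate 3 of F1-HHcy held the lowest value of its group for 8 of the 9 genes, all but Dcn, as did replicate 1 of F1-Control for 7 at Pd3 and for 7 at Pd21. Without F1-HHcy replicate 3 all 9 were called, and 2824 genes in place of 408. Without any of the other 5 libraries none of the 9 was called, and the count of all genes was 0, 1 and 53 without F1-Control replicates 1, 2 and 3, and 84 without F1-HHcy replicate 1 or 2.

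At Pd7 the genes parted. Omd, Aspn, Ogn and Fmod were called higher in F1-HHcy, 4 of 9 against 11.9% of the 13299 genes tested (5.88% called higher), and limma-voom also called 4. Dcn and Lum had negative fold changes, -0.88 and -0.33, and Dcn was the only gene of the 9 whose F1-HHcy libraries all lay below the F1-Control libraries. The libraries of Bgn, Fmod, Ogn, Omd and Aspn were higher without overlap, against 19.5% of all genes higher without overlap, and 6 of 9 showed no overlap in either direction, against 39%. The median log2 fold change was 0.71, beside -0.0015 over all genes. On the limma values the study's criterion was met by 6 of 9, 5 higher and 1 lower, against 16.4% of all genes. Leaving out libraries gave between 2 and 5 calls among the 9. The lowest, 2, came without F1-HHcy replicate 1 or 2 or F1-Control replicate 2, and 5 came without F1-Control replicate 3.

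At Pd21, limma called 0 of the 9 genes, against 2.23% of the 13350 genes tested, all of these lower, and limma-voom also called 0. At an unadjusted p under 0.05 only Dcn passed, 1 of 9 against 6.85% of all genes. It was also the only gene of the 9 without overlap, lower in F1-HHcy, against 8.61% of all genes lower without overlap and 10.5% in either direction. The median log2 fold change was -0.06, beside -0.011 over all genes. A p that misses the threshold does not show that values did not differ.

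**Figure D2:**
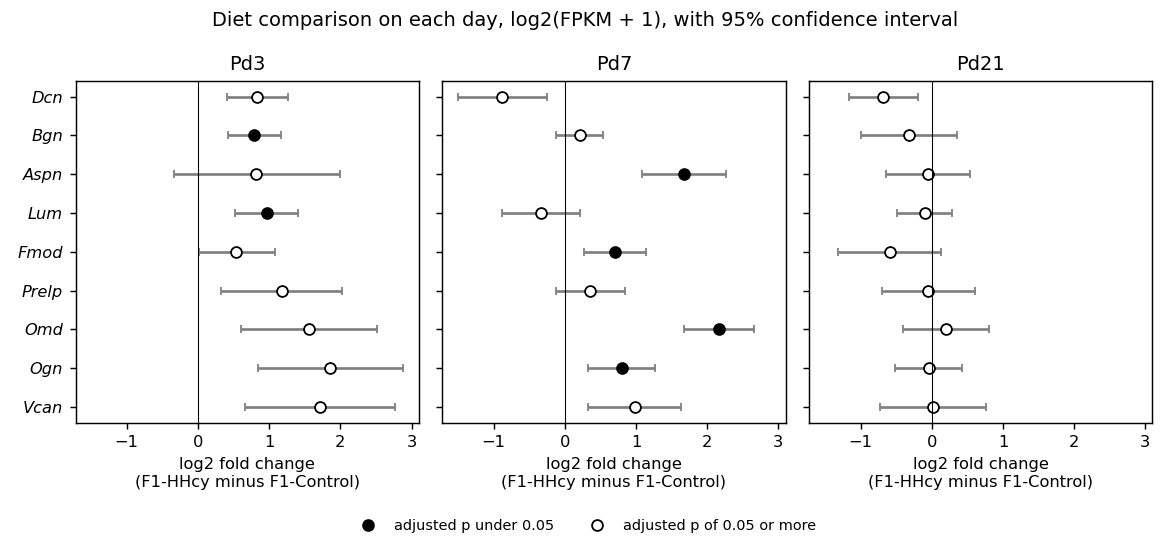
Log2 fold change of F1-HHcy over F1-Control (horizontal axis, on log2(FPKM + 1), with 95% confidence intervals) for each of the 9 genes at Pd3, Pd7 and Pd21, with filled points where the adjusted p was under 0.05. Points reach 1.86 for Ogn at Pd3 and 2.17 for Omd at Pd7, and at Pd21 they lie between -0.68 and 0.20.

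Decorin carries a single chondroitin or dermatan sulfate chain and binds collagen I. In F1-Control its level was 175, 239 and 176 FPKM at Pd3, 503, 585 and 374 FPKM at Pd7, and 250, 270 and 372 FPKM at Pd21. In F1-HHcy it was 309, 430 and 316 FPKM at Pd3, 316, 330 and 169 FPKM at Pd7, and 212, 152 and 189 FPKM at Pd21. The diet groups did not overlap on any day, and F1-HHcy was the higher group at Pd3 and the lower at Pd7 and Pd21. The log2 fold changes were 0.83 ± 0.18 (SE; 95% interval 0.41 to 1.26), -0.88 ± 0.28 (-1.50 to -0.25) and -0.68 ± 0.21 (-1.16 to -0.20). None was called, with adjusted p-values of 0.0559, 0.0687 and 0.277 from limma. The Pd3 difference was called without F1-HHcy replicate 3 (adjusted p = 0.0152; 0.0152 to 0.261 over the 13 alternatives). The Pd7 difference was called without F1-Control replicate 3 (adjusted p = 0.0479), with all 18 libraries in 1 model (0.035) and with the replicate block (0.0117; 0.0117 to 0.195 over the alternatives).

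The diet effects on decorin were compared between days as a difference of log2 effects, which does not test whether the sign changed. Between Pd3 and Pd21 the effect differed by -1.51 ± 0.36, with an adjusted p of 0.0197. That call was made in 20 of 24 alternatives (adjusted p 0.00649 to 0.0824) and was lost without F1-Control Pd3 replicate 1 (0.0661), F1-HHcy Pd3 replicate 2 (0.0602), F1-Control Pd21 replicate 3 (0.0824) or F1-HHcy Pd21 replicate 2 (0.0585). Between Pd3 and Pd7 the difference was larger, -1.71 ± 0.37, but missed the threshold (adjusted p = 0.0597, with 0.0317 to 0.194 over 19 alternatives). It was called in 4 of them, without F1-HHcy Pd3 replicate 1 (0.0493) or replicate 3 (0.0317), with all 18 libraries in 1 model (0.0445) and with the replicate block (0.0384). Between Pd7 and Pd21 it was 0.20 ± 0.36.

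Biglycan, the class I protein with a pair of glycosaminoglycan chains, is encoded on the X chromosome. At Pd3 its level was 67.6, 87.2 and 84.7 FPKM in F1-Control and 153, 151 and 114 FPKM in F1-HHcy. At Pd7 it was 153, 143 and 153 FPKM against 187, 177 and 156 FPKM. At Pd21 it was 166, 325 and 229 FPKM against 209, 129 and 232 FPKM. F1-HHcy stood above F1-Control in every library at Pd3 and Pd7, narrowly at Pd7, and the groups overlapped at Pd21. Bgn rose at Pd3 by a log2 fold change of 0.79 ± 0.16 (adjusted p = 0.0453), and this call was lost without F1-Control replicate 1, 2 or 3 or F1-HHcy replicate 1 or 2 (0.228, 0.16, 0.122, 0.119 and 0.139). With the replicate block the adjusted p was 0.131, with no filter 0.139, and the 13 alternatives ranged from 0.00343 to 0.228. The fold changes at Pd7 and Pd21 were 0.21 ± 0.15 (adjusted p = 0.35) and -0.32 ± 0.30 (adjusted p = 1).

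Asporin is a class I protein with an aspartate-rich N terminus that binds collagen and TGF-beta. Its F1-Control levels were 3.58, 5.46 and 2.37 FPKM at Pd3, 7.14, 7.69 and 12.4 FPKM at Pd7, and 14.1, 25.6 and 29.6 FPKM at Pd21. Its F1-HHcy levels were 16.5, 6.79 and 3.03 FPKM at Pd3, 35.7, 38.8 and 19.9 FPKM at Pd7, and 21, 24 and 18.9 FPKM at Pd21. At Pd3 the high mean of F1-HHcy came from replicate 1 and the groups overlapped, at Pd7 the groups were apart, and at Pd21 F1-HHcy lay within the F1-Control range. Aspn rose at Pd7 by 1.67 ± 0.27 (1.08 to 2.27) on the log2 scale (adjusted p = 0.00658). The call was made in 12 of 13 alternatives and without each library in turn (adjusted p 0.00187 to 0.071), and was lost with no filter on low values (0.071). At Pd3 the fold change was 0.82 ± 0.50 (adjusted p = 0.371), called without F1-HHcy replicate 3 (0.035; 0.035 to 0.767 over the alternatives). The difference of effects between Pd7 and Pd21, -1.73 ± 0.59, had an adjusted p of 0.121 (0.0411 to 0.275 over 24 alternatives), and was called without F1-HHcy Pd3 replicate 1 (0.0411) or replicate 3 (0.0477).

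Lumican, a keratan sulfate proteoglycan that spaces collagen fibrils, was at 43.1, 56.3 and 46.9 FPKM in F1-Control and 90.3, 126 and 77.1 FPKM in F1-HHcy at Pd3. At Pd7 it was at 138, 151 and 88 FPKM against 105, 120 and 71.6 FPKM, and at Pd21 at 59.5, 78.6 and 84.6 FPKM against 71.8, 72.8 and 61.2 FPKM. The groups were apart at Pd3 and overlapped on both later days. Lum rose at Pd3 by 0.97 ± 0.19 (0.52 to 1.41) on the log2 scale (adjusted p = 0.0453). The call was lost without F1-Control replicate 1, 2 or 3 (0.23, 0.149 and 0.142), without F1-HHcy replicate 1 or 2 (0.0942 and 0.0947), with the replicate block (0.108) and with no filter (0.14), in a range of 0.00431 to 0.23 over the 13 alternatives. Its fold change was -0.33 ± 0.25 at Pd7 and -0.10 ± 0.17 at Pd21, and the sign at Pd21 rested on F1-Control replicate 3, without which it was 0.00.

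Fibromodulin is a class II collagen-binding protein. It was at 3.42, 5.15 and 5.58 FPKM in F1-Control and 9.36, 7.68 and 5.17 FPKM in F1-HHcy at Pd3, and at 7.4, 4.17 and 5.79 FPKM against 8.72, 9.76 and 11.3 FPKM at Pd7. At Pd21 it was at 12, 26.8 and 18.9 FPKM against 11, 8.56 and 17.3 FPKM. F1-HHcy exceeded F1-Control without overlap at Pd7 alone of the 3 days. Fmod rose at Pd7 by 0.71 ± 0.19 (0.27 to 1.14) on the log2 scale (adjusted p = 0.0445). The call was lost without F1-Control replicate 2 or 3 (0.0907 and 0.0656), without F1-HHcy replicate 1, 2 or 3 (0.0926, 0.125 and 0.118), with no filter (0.133) and with all 18 libraries in 1 model (0.106), in a range of 0.0354 to 0.133 over 13 alternatives. Its fold change was 0.54 ± 0.23 at Pd3 (adjusted p = 0.218), called without F1-HHcy replicate 3 (0.0284; 0.0284 to 0.533 over the alternatives), and -0.59 ± 0.32 at Pd21 (adjusted p = 0.968).

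PRELP links basement membranes to collagen and binds heparan sulfate. It was at 3.52, 2.41 and 5.03 FPKM in F1-Control and 12.4, 13 and 4.78 FPKM in F1-HHcy at Pd3, where replicate 3 of F1-HHcy lay inside the F1-Control range. At Pd7 the means were 9.91 ± 3.22 and 12.5 ± 0.696 FPKM, and at Pd21 13.9 ± 5.25 and 13.2 ± 3.86 FPKM, with overlap on both days. Prelp was called on no day. Its log2 fold change at Pd3 was 1.18 ± 0.36 (adjusted p = 0.119), called without F1-HHcy replicate 3 (0.00329) and with all 18 libraries in 1 model (0.0476), in a range of 0.00329 to 0.341 over 13 alternatives. At Pd7 it was 0.35 ± 0.22, and at Pd21 -0.05 ± 0.29, a sign that flipped to 0.01 with median-ratio scaling and to 0.23 and 0.20 without F1-Control or F1-HHcy replicate 2.

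Osteomodulin is a keratan sulfate proteoglycan first known from bone. In F1-Control it was at 0.766, 1.05 and 1.03 FPKM at Pd3, 3.37, 3.59 and 6.85 FPKM at Pd7, and 17.1, 22.3 and 18.1 FPKM at Pd21. In F1-HHcy it was at 10.2, 4.27 and 2.18 FPKM at Pd3, 22.1, 22 and 26.1 FPKM at Pd7, and 16.6, 18.7 and 34.8 FPKM at Pd21. The diet groups were apart at Pd3 and Pd7, and the F1-HHcy libraries of Pd7 lay in the range that F1-Control held at Pd21 or just above it, a comparison in which age and batch cannot be told apart. Omd rose at Pd7 by 2.17 ± 0.22 (1.68 to 2.66) on the log2 scale (adjusted p = 0.00129), a mean 5.08 times that of F1-Control. It was the gene of the 9 called in every one of the 13 alternatives at Pd7 (adjusted p 5.58e-05 to 0.0445). At Pd3 its fold change of 1.56 ± 0.41 missed the threshold (adjusted p = 0.0828) and passed without F1-HHcy replicate 3 (0.00389) and with all 18 libraries in 1 model (0.0144; 0.00389 to 0.297 over the alternatives).

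At Pd21 the fold change of Omd was 0.20 ± 0.26 (-0.40 to 0.81), and without F1-HHcy replicate 3 it was -0.11. The diet effect on Omd differed between Pd7 and Pd21 by -1.97 ± 0.50 (-3.01 to -0.92), with an adjusted p of 0.0339 from limma. This call was made in 13 of 24 alternatives (adjusted p 0.00449 to 0.102) and lost with no filter (0.0842) and the replicate block (0.053). It was also lost without any 1 of 9 libraries of these days, namely F1-Control Pd7 replicate 1 or 2 (0.0769 and 0.102), F1-HHcy Pd7 replicate 1, 2 or 3 (0.0664, 0.0688 and 0.0783), F1-Control Pd21 replicate 1, 2 or 3 (0.0858, 0.0824 and 0.0899) and F1-HHcy Pd21 replicate 2 (0.084).

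Osteoglycin, also called mimecan, is the class III member and takes part in collagen fibril formation. In F1-Control it was at 17.6, 20.3 and 19.4 FPKM at Pd3, 97.1, 81.3 and 119 FPKM at Pd7, and 146, 214 and 179 FPKM at Pd21. In F1-HHcy it was at 130, 87.8 and 32.5 FPKM at Pd3, 185, 204 and 131 FPKM at Pd7, and 140, 200 and 184 FPKM at Pd21. The groups were apart at Pd3, where F1-HHcy was widely spread, and at Pd7, and overlapped at Pd21. Ogn rose at Pd7 by 0.80 ± 0.21 (0.33 to 1.26) on the log2 scale (adjusted p = 0.0375). That call was lost without F1-Control replicate 1 or 2 (0.0778 and 0.105), without F1-HHcy replicate 1 or 2 (0.137 and 0.14), with no filter (0.125), with all 18 libraries in 1 model (0.124) and with median-ratio scaling (0.0533), in a range of 0.0254 to 0.14 over 13 alternatives. At Pd3 its fold change of 1.86 ± 0.44 (0.85 to 2.88) was the largest of the 9 genes on this scale, while as a ratio of mean FPKM Omd (5.84) and Vcan (4.4) stood above Ogn (4.36). It missed the threshold (adjusted p = 0.0638) and was called when F1-HHcy replicate 3 was left out (2.42, adjusted p = 0.000187) and with all 18 libraries in 1 model (0.00415; 0.000187 to 0.269 over the alternatives). At Pd21 it was -0.04 ± 0.20, which flipped to 0.02 with median-ratio scaling and to 0.10 and 0.11 without F1-Control replicate 2 or F1-HHcy replicate 1.

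The diet effect on Ogn differed between Pd3 and Pd21 by -1.90 ± 0.48 (-2.92 to -0.88), with an adjusted p of 0.0305. The call was made in 13 of 24 alternatives (adjusted p 0.000133 to 0.0886). It was lost with no filter (0.0778) and without F1-Control Pd3 replicate 1, 2 or 3 (0.0886, 0.0616 and 0.0569) or F1-HHcy Pd3 replicate 1 or 2 (0.0726 and 0.0829). Among the Pd21 libraries it was lost without F1-Control replicate 1, 2 or 3 (0.0554, 0.0823 and 0.0879) or F1-HHcy replicate 1 or 3 (0.0658 and 0.0528).

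Versican was at 3.18, 3.93 and 5.65 FPKM in F1-Control and 32.8, 15.8 and 7.56 FPKM in F1-HHcy at Pd3. At Pd7 it was at 13.3, 12.1 and 29.4 FPKM against 38.4, 37.9 and 27.5 FPKM, and at Pd21 at 18.7, 12.4 and 31.2 FPKM against 25.6, 20.8 and 14.2 FPKM. The groups were apart at Pd3, while at Pd7 replicate 3 of F1-Control reached into the F1-HHcy range. Vcan was called on no day. Its log2 fold change was 1.72 ± 0.45 (0.66 to 2.77) at Pd3 with an adjusted p of 0.0848, which passed without F1-HHcy replicate 3 (0.00312) and with all 18 libraries in 1 model (0.0244; 0.00312 to 0.305 over 13 alternatives). At Pd7 it was 0.98 ± 0.29 with an adjusted p of 0.0566, which passed without F1-Control replicate 3 (adjusted p = 0.00187) and with the replicate block (0.0433; 0.00187 to 0.186 over the alternatives). At Pd21 it was 0.02 ± 0.32, and negative without F1-Control replicate 1 or 2 (-0.01 and -0.28) or F1-HHcy replicate 1 or 2 (-0.16 and -0.02).

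Over all 9 genes, the diet effect at Pd3 and Pd7 was compared in a model of the 12 libraries of batch 1. limma called the difference for 0 of 9, against 0.514% of 13998 genes, and limma-voom also for 0. At an unadjusted p under 0.05, 3 of 9 passed (Dcn, Lum and Bgn, all negative) against 16.8% of all genes. The median difference was -0.74, beside 0.0033 over all genes. Calls numbered 1 without F1-HHcy Pd3 replicate 1 (Dcn) and 3 without F1-HHcy Pd3 replicate 3, where Dcn, Lum and Ogn passed (adjusted p 0.0317, 0.0434 and 0.0127, beside ranges over 19 alternatives of 0.0317 to 0.194, 0.0384 to 0.27 and 0.0127 to 0.516). With the replicate block Dcn and Lum were called (both 0.0384), and with all 18 libraries in 1 model Dcn alone (0.0445).

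Against Pd21 the difference was tested in a model of all 18 libraries, in which age and batch cannot be told apart. Between Pd3 and Pd21 it was negative for 9 of 9 and called for 2, Dcn and Ogn, against 4.59% of 14607 genes, with a median of -1.23 beside -0.0086 over all genes. Without F1-HHcy Pd3 replicate 3, 7 of 9 were called, and 0 without F1-Control Pd3 replicate 1, F1-HHcy Pd3 replicate 2 or F1-Control Pd21 replicate 3. Only 1 was called without F1-Control Pd3 replicate 2 or 3, F1-HHcy Pd3 replicate 1, F1-Control Pd21 replicate 2 or F1-HHcy Pd21 replicate 1 or 2. Between Pd7 and Pd21 the difference was called for 1 of 9, Omd, against 3.89% of all genes, with a median of -0.84 beside -0.033. That count was 2 without F1-HHcy Pd3 replicate 1 or 3 or F1-HHcy Pd21 replicate 3, and 0 without any of the 9 libraries whose absence ended the call of Omd.

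The postnatal course between Pd3 and Pd7 was compared within each diet group in the model of the 12 libraries of batch 1. In F1-Control all 9 genes had a higher mean at Pd7, and 7 were called, against 12.6% of 13998 genes (6.03% called higher). The days did not overlap for 8 of 9, all but Fmod, against 16.5% of all genes higher without overlap. The median log2 fold change was 1.30, beside -0.058 over all genes. Ogn rose by 2.30 ± 0.37 (adjusted p = 0.00461) and Bgn by 0.90 ± 0.15 (adjusted p = 0.00461), and these calls were made in all 19 alternatives (1.64e-05 to 0.0304 for Ogn and 0.000719 to 0.0348 for Bgn). Lum rose by 1.32 ± 0.24 and Dcn by 1.30 ± 0.26 (adjusted p = 0.00844 and 0.0114), both lost only without F1-Control Pd3 replicate 1 (0.0513 and 0.0605, the highest of their alternatives, whose lowest were 0.00267 and 0.00493).

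Vcan, Omd and Prelp also rose from Pd3 to Pd7 in F1-Control, by 1.79 ± 0.42, 1.47 ± 0.36 and 1.22 ± 0.33 (adjusted p = 0.0218, 0.0232 and 0.0336). These 3 calls were lost with no filter (0.0744, 0.0772 and 0.096) and without F1-Control Pd3 replicate 1 (0.0913, 0.0909 and 0.102), F1-Control Pd3 replicate 2 (0.0727, 0.0687 and 0.117) or F1-Control Pd7 replicate 3 (0.0878, 0.0938 and 0.112). The call of Omd was lost as well without F1-Control Pd3 replicate 3 (0.0591), and that of Prelp without F1-Control Pd7 replicate 1 (0.0685). Over the alternatives the adjusted p ranged from 0.00352 to 0.0913 for Vcan, 0.00307 to 0.0938 for Omd and 0.00438 to 0.117 for Prelp. The fold changes of Aspn and Fmod, 1.08 ± 0.44 and 0.24 ± 0.23, were not called (adjusted p = 0.118 and 0.487). Aspn passed without F1-HHcy Pd3 replicate 1 or 3 (0.0425 and 0.0407; 0.0407 to 0.306 over the alternatives). The count of 7 became 2 without F1-Control Pd3 replicate 1 and 4 without F1-Control Pd3 replicate 2 or Pd7 replicate 3.

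In F1-HHcy over the same days, 2 of 9 genes were called, against 4.44% of 13998 genes (2.13% called higher), with a median of 0.40 beside -0.042 over all genes. The days did not overlap for 4, Bgn, Ogn, Omd and Aspn, against 14% of all genes higher without overlap. Omd rose by 2.09 ± 0.36 (adjusted p = 0.0165), and the call was lost without F1-HHcy Pd3 replicate 2 (0.0742) or F1-HHcy Pd7 replicate 1 or 2 (0.087 and 0.0711), in a range of 0.000283 to 0.087 over 19 alternatives. Aspn rose by 1.93 ± 0.44 (adjusted p = 0.0343), lost with no filter (0.0954) and without F1-Control Pd3 replicate 1 or 2 (0.0544 and 0.0505), F1-HHcy Pd3 replicate 2 or 3 (0.111 and 0.0962) or F1-HHcy Pd7 replicate 1, 2 or 3 (0.13, 0.129 and 0.0534), in a range of 0.00199 to 0.13. Ogn, at 1.23 ± 0.37 (adjusted p = 0.0713), passed without F1-HHcy Pd3 replicate 1 (0.00688) and with all 18 libraries in 1 model (0.0458; 0.00688 to 0.216 over the alternatives), and Vcan, at 1.06 ± 0.42 (adjusted p = 0.147), passed without F1-HHcy Pd3 replicate 1 (0.0148; 0.0148 to 0.452). The count of 2 became 4 without F1-HHcy Pd3 replicate 1, 1 without F1-Control Pd3 replicate 1 or 2, F1-HHcy Pd3 replicate 3 or F1-HHcy Pd7 replicate 3, and 0 without F1-HHcy Pd3 replicate 2 or F1-HHcy Pd7 replicate 1 or 2. Dcn alone of the 9 had a lower mean at Pd7, with -0.42 ± 0.26. The fold change of Lum was 0.02 ± 0.24. These age contrasts share their libraries with the diet comparisons of the same days.

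Ordered by mean FPKM over the 6 groups, F1-Control at Pd3 was the lowest for 8 of the 9 genes, and for Dcn the lowest was F1-HHcy at Pd21, within the spread of F1-Control at Pd3. In that order the step from F1-Control at Pd3 to the next group exceeded the larger SD, with no overlap, for Lum, Bgn, Ogn, Omd, Prelp and Vcan. For Omd the groups fell into 3 tiers: F1-Control at Pd3 (0.951 ± 0.16 FPKM), F1-HHcy at Pd3 with F1-Control at Pd7 (5.56 ± 4.18 and 4.6 ± 1.95 FPKM), and the remaining groups (19.2 ± 2.77 to 23.4 ± 2.33 FPKM). Ogn had the same tiers at 19.1 ± 1.38, then 83.3 ± 48.7 and 99 ± 18.7, then 174 ± 38 to 180 ± 34.1 FPKM. Aspn parted only between F1-Control at Pd7 (9.07 ± 2.89 FPKM) and F1-HHcy at Pd21 (21.3 ± 2.56 FPKM), with F1-HHcy at Pd7 among the high groups. Within the tiers of these 3 genes, neighbours differed by less than the larger SD.

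Aspn, Omd and Ogn are neighbours on the plus strand of chromosome 13, at chr13:49544443-49567565, chr13:49582462-49592612 and chr13:49608015-49624501 (GRCm38.p6). They are separated by 14.9 and 15.4 kb, and Ecm2, a further leucine-rich repeat gene, ends 11.7 kb before Aspn. All of them lie within the span of Cenpp, which runs on the minus strand and stood at 1.57 to 4.04 FPKM. The libraries came from a stranded kit but the strand setting of the counting is not given, so reads of overlapping genes cannot be told apart where they share exons or introns. Vcan lies elsewhere on the chromosome, at chr13:89655309-89743027 on the minus strand, and overlaps Gm4117, which did not exceed 0.185 FPKM. Ecm2 was at 1.3, 0.918 and 1.14 FPKM in F1-Control and 5.09, 4 and 2.64 FPKM in F1-HHcy at Pd3, and at 4.87, 3.69 and 5.56 FPKM against 8.59, 7.85 and 6.87 FPKM at Pd7. The diet groups of Ecm2 were apart on both days, as were those of Omd and Ogn, against 27.9% of all genes at Pd3 and 39% at Pd7. Dcn and Lum are neighbours on chromosome 10, 47.3 kb apart, and Prelp and Fmod on chromosome 1, 107 kb apart.

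Of the 9 genes, 7 had a promoter in the RefSeq table (GRCm38.p6, 250 bases before to 50 after the start), and Dcn and Lum are named only. The promoters of the neighbouring Aspn, Omd and Ogn, all on the plus strand, and of Vcan, on the minus strand, are shown because these genes had the 4 highest fold changes at Pd7. They span chr13:49544193-49544492, chr13:49582212-49582511, chr13:49607765-49608064 and chr13:89742463-89742762. Capitals mark, on either strand, TATAAA (the TATA box, in 13.6% of 32851 promoters), GGGCGG (the GC box, in 35.7%) or GGAATG (the TEAD motif, in 14.7%).
Aspn: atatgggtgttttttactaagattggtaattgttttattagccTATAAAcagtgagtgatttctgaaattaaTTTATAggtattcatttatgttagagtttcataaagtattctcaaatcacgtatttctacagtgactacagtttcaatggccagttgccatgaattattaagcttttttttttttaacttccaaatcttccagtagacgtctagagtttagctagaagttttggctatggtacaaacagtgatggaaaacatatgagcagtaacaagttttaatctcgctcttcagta
Omd: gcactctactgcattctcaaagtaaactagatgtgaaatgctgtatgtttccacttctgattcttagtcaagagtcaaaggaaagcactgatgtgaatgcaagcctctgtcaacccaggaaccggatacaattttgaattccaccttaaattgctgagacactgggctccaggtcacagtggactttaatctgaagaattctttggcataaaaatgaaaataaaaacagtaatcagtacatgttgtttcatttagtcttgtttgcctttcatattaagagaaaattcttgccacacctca
Ogn: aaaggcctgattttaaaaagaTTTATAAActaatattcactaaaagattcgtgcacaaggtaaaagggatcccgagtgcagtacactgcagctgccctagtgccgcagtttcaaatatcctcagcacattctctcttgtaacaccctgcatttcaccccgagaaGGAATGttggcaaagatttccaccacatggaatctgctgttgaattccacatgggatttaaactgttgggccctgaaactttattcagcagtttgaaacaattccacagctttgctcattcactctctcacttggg
Vcan: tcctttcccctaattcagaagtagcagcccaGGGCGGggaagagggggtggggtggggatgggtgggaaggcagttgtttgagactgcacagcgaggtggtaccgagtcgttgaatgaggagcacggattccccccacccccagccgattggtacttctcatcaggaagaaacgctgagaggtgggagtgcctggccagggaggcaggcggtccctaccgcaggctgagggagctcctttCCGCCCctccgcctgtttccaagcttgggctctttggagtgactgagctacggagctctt
The Aspn promoter held TATAAA 207 bases before the start on the gene's strand and 178 bases before it on the opposite strand. That of Ogn held a pair of overlapping TATAAA matches, 229 bases before the start on the opposite strand and 227 on the same strand, and GGAATG 86 bases before it. That of Omd held none of the 3 motifs. The Vcan promoter held GGGCGG 219 bases before the start on the gene's strand and 10 on the opposite strand. Its window lies inside the gene span given above, so the start used for Vcan is not the outer end of that span. GC content was 31% for Aspn, 37.7% for Omd and 42.3% for Ogn, all under the lower quartile of all promoters (45.7%), and 61% for Vcan, just under the upper quartile (61.7%). Bgn, at 63.7%, held 3 GC boxes on the opposite strand. A match is a description of the letters and not a site.

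The make-up of the group shifted with the diet at Pd7. In the 3 F1-Control libraries Ogn stood at 0.193, 0.139 and 0.317 of the Dcn level, both in FPKM, and in F1-HHcy at 0.588, 0.619 and 0.774. At Pd3 the ratio was 0.101, 0.0849 and 0.11 in F1-Control and 0.419, 0.204 and 0.103 in F1-HHcy, where replicate 3 lay inside the F1-Control range. At Pd21 it was 0.583, 0.794 and 0.481 against 0.659, 1.31 and 0.978, with overlap. The diet groups of this ratio were thus apart at Pd7 only.

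Other ratios to Dcn followed at Pd7. Aspn over Dcn was 0.0202 ± 0.0113 in F1-Control and 0.116 ± 0.00255 in F1-HHcy, and Omd over Dcn was 0.0104 ± 0.00688 and 0.0969 ± 0.0495. Bgn over Dcn ran from 0.244 to 0.41 in F1-Control and from 0.537 to 0.924 in F1-HHcy. Lum over Dcn ran from 0.236 to 0.274 and from 0.333 to 0.423. None of these ratios overlapped between the diet groups at Pd7. Their shared denominator, Dcn, was itself lower in F1-HHcy at Pd7 without overlap, at 272 ± 88.9 against 487 ± 107 FPKM. A ratio can therefore part where the other gene did not, as for Lum, whose own levels overlapped at Pd7. The share of all genes whose ratio to Dcn was apart was not computed. Lum over Dcn was also apart at Pd21, at 0.227 to 0.292 against 0.324 to 0.479, as was Aspn over Dcn, at 0.0562 to 0.095 against 0.099 to 0.157. Omd over Dcn was also apart at Pd3, at 0.00439 to 0.00587 against 0.0069 to 0.0331. With 3 libraries against 3, an exact permutation test cannot reach a p under 0.1, and the ratios are given as description. As a share of the summed FPKM of the 9 genes at Pd7, Dcn held 53.2 ± 6.1% in F1-Control and 32.1 ± 4.37% in F1-HHcy, and Ogn 11.1 ± 3.39% and 20.9 ± 0.56%.

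**Figure D3:**
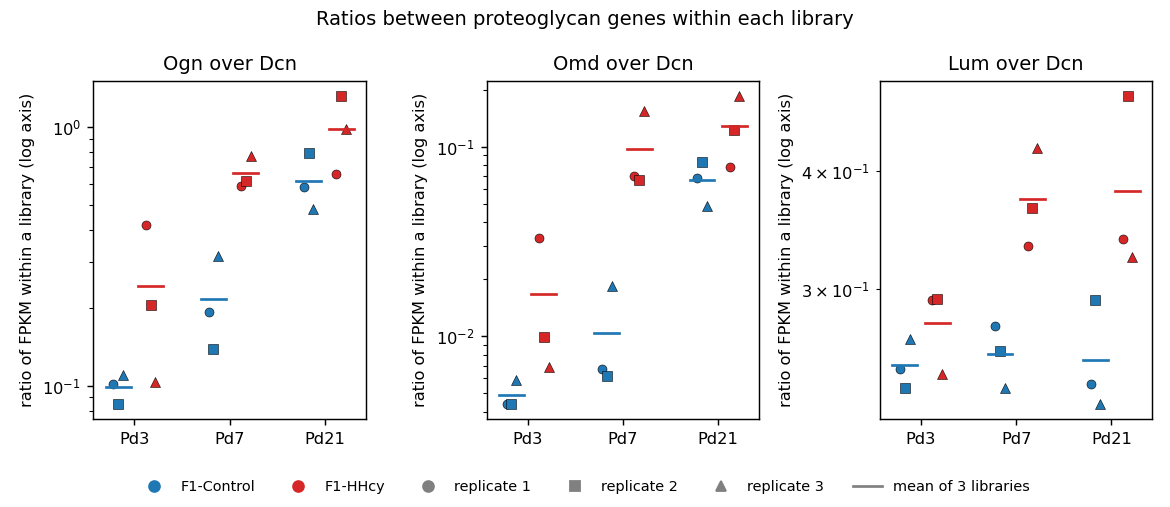
Ratio of FPKM to that of Dcn in the same library (vertical axis, log scale) in each of the 18 libraries by group. At Pd7 Ogn over Dcn lies at 0.139 to 0.317 in F1-Control and 0.588 to 0.774 in F1-HHcy.

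Within each day, libraries that were high for one gene were often high for certain others. After subtracting the day's mean from log2(FPKM + 1), Dcn and Lum had a Pearson correlation of 0.82 over the 18 libraries, which share 6 groups of diet and day. Ogn and Vcan reached 0.86, Omd and Aspn 0.84, Ogn and Omd 0.82, and Bgn and Fmod 0.82. Dcn had -0.21 with Omd and -0.07 with Aspn. These patterns include the diet differences themselves, and they are descriptions without a test.

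Outside the group, the genes most like 8 of the members by the same measure, over 18 libraries, were found among all genes tested. For Dcn they were Mfap4 (0.93), a microfibril protein, Hmgn3 (0.91) and Islr (0.90). For Lum they were C1qtnf2 (0.86), Pmp22 (0.86) and Smim41 (0.85), and for Bgn Gdf10 (0.91), Mcam (0.90) and Serping1 (0.90). Fmod was closest to Sdc3 (0.89), Selenon (0.88) and Myo1c (0.88), and Prelp to Abca9 (0.90), Mylk (0.89), the myosin light chain kinase, and Ntrk3 (0.88). For Omd they were Pvt1 (0.96), Oog4 (0.96) and Trib2 (0.95), for Aspn Pros1 (0.91), Gm46750 (0.91) and Syt15 (0.90), and for Vcan Gm41358 (0.94), Lama2 (0.94), a laminin chain, and Sct (0.93).

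Among 10 other small leucine-rich proteoglycan genes, 3 were tested at Pd3 and Pd7, and only Ecm2 was called, higher on both days (1.18 ± 0.21, adjusted p = 0.033, and 0.63 ± 0.17, adjusted p = 0.0419). Over all genes, 1.64% were called higher at Pd3 and 5.88% at Pd7. Keratocan (Kera), epiphycan (Epyc) and opticin (Optc) did not exceed 0.412, 0.14 and 0.934 FPKM in any library. The enzymes that build chondroitin and dermatan sulfate chains had 0 of 18 tested genes called by limma at Pd3 (5 at an unadjusted p under 0.05, 0 by limma-voom) and 3 of 19 at Pd7 (2 by limma-voom), all higher, against 11.9% of all genes (5.88% called higher), the sulfotransferases Chst11 (0.88 ± 0.23, adjusted p = 0.0357), Chst12 (0.57 ± 0.15, adjusted p = 0.0404) and Chst15 (0.62 ± 0.17, adjusted p = 0.0452). Their median log2 fold change was 0.21 at Pd3 and 0.11 at Pd7. Of 5 tested keratan sulfate genes limma and limma-voom called 0 on each day (2, 0 and 0 at an unadjusted p under 0.05), and their medians were 0.04, -0.15 and -0.11. Of all genes, 22.4%, 31.5% and 6.85% had an unadjusted p under 0.05 at Pd3, Pd7 and Pd21. Among genes that handle hyaluronan and versican at Pd7, the hyaluronidase Hyal1 (0.90 ± 0.21, adjusted p = 0.0255) and the versican protease Adamts5 (0.98 ± 0.28, adjusted p = 0.0479) were called higher, from lists of 5 and 4 tested. The hyaluronan matrix protein Ptx3 passed the filter at Pd7 only through the F1-HHcy libraries, so its call as higher (1.34 ± 0.18, adjusted p = 0.00336; 0.0554 with no filter) was favoured by the filter. The hyaluronan receptor Cd44 was at 8.2 ± 0.457 and 5.12 ± 1.03 FPKM at Pd3 and at 5.19 ± 1.66 and 2.76 ± 0.331 FPKM at Pd7, without overlap and uncalled. Of all genes, 27.9% showed no overlap at Pd3 and 39% at Pd7.

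The collagens bound by small leucine-rich proteoglycans had 9 of 10 positive fold changes at Pd3. Of these 10, 3 were called higher, against 1.64% of all genes, and the median was 0.60, beside -0.031 over all genes. Col1a2, a chain of collagen I, rose by 1.14 ± 0.19 (adjusted p = 0.0307), Col5a1, which nucleates fibrils, by 0.93 ± 0.15 (adjusted p = 0.0292), and Col12a1 by 0.81 ± 0.14 (adjusted p = 0.032). At Pd7 limma and limma-voom called 0 of the 10 (3 at an unadjusted p under 0.05, against 31.5% of all genes) and the median was -0.02. At Pd21 all 10 were negative, with 0 called by either tool (1 at an unadjusted p under 0.05, against 6.85% of all genes) and a median of -0.45. Of 6 TGF-beta ligands and receptors, Tgfbr3 (0.84 ± 0.12, adjusted p = 0.0211) and Tgfbr2 (0.66 ± 0.12, adjusted p = 0.0362) were called higher at Pd3, against 1.64% of all genes. At Pd7 Tgfbr3 (0.95 ± 0.20, adjusted p = 0.016) was called higher, against 5.88% of all genes. Heparan sulfate proteoglycan cores had 2 of 10 called higher at Pd3, against 1.64% of all genes, glypican-3 (Gpc3, 0.88 ± 0.13, adjusted p = 0.0225) and perlecan (Hspg2, 1.01 ± 0.19, adjusted p = 0.0392). At Pd7 they had 2 of 10 called lower, against 5.98% of all genes, syndecan-1 (Sdc1, -0.85 ± 0.24, adjusted p = 0.0495) and glypican-1 (Gpc1, -0.56 ± 0.15, adjusted p = 0.0373). Over the 9 lists, limma called 8 of 62 tested genes at Pd3, against 3.07% of all genes, and 10 of 67 at Pd7, Ptx3 among them, against 11.9%, and limma-voom called 8 and 8. At Pd21, limma and limma-voom called 0 of the 63 tested genes of these 9 lists (3 at an unadjusted p under 0.05). The most abundant genes of the lists included Col3a1, with a mean of 350 FPKM over the 18 libraries, Sdc4 (72.2), Tgfb3 (33.4), B4galt4 (25.5), Hyal2 (22.5), B3gat3 (22), Tgfbr1 (20), Fam20b (18.3), B3gnt2 (13.2), Adamts9 (9.73), Adamts1 (7.95), Tsku (2.88) and Cemip2 (2.53). limma called none of these on any day, nor Podn, Has3, Adamts4 and Chst1 on the days on which they were tested. limma-voom called 2 of the 5 tested genes of hyaluronan synthesis and breakdown at Pd7, against 1 by limma.

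These pathway calls depended on the libraries much as those of the proteoglycans did. At Pd3, Ecm2, Col1a2, Col5a1, Col12a1, Tgfbr2, Tgfbr3 and Gpc3 were each called without F1-HHcy replicate 3 and lost without any other of the 6 libraries, with adjusted p-values up to 0.175, 0.173, 0.142, 0.189, 0.213, 0.145 and 0.142. Hspg2 was lost without F1-Control replicate 1 or 2 (0.188 and 0.177) or F1-HHcy replicate 1 or 2 (0.0942 and 0.114). At Pd7, Chst12 and Chst15 were lost without each of the 6 libraries in turn (0.0582 to 0.176 and 0.0546 to 0.182). Ecm2, Hyal1 and Chst11 were lost without F1-Control replicate 1 or 2 or F1-HHcy replicate 1, 2 or 3 (up to 0.178, 0.0905 and 0.107). Adamts5 and Sdc1 were lost without any library but F1-HHcy replicate 3 (up to 0.16 and 0.164), Gpc1 without any but F1-Control replicate 3 (up to 0.171), and Tgfbr3 without F1-HHcy replicate 1, 2 or 3 (0.0592, 0.0543 and 0.0534). Without any 1 of the F1-HHcy libraries Ptx3 was not tested, and its other fits gave 0.00145 to 0.0554. With no filter all of these calls were lost, at 0.0913 to 0.129 on Pd3 and 0.0554 to 0.174 on Pd7. With the replicate block all 8 of Pd3 were lost (0.108 to 0.131), as were Chst15 and Gpc1 at Pd7 (0.05 and 0.0539). With all 18 libraries in 1 model Hspg2, Col5a1 and Col12a1 were lost at Pd3 (0.0563, 0.078 and 0.122) and Ecm2 at Pd7 (0.0538). Adamts5 and Sdc1 were lost with a pseudocount of 0.1 (0.0541 and 0.0549), median-ratio scaling (0.0548 and 0.0566) and limma-voom (0.0567 and 0.0611), and Chst12 with limma-voom (0.0645).

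Marker lists of ovarian cell types were read from the same libraries, each said to be led by the marker with its highest mean over the 18 libraries. Of all single genes tested, 27.9% had diet groups without overlap at Pd3, 39% at Pd7 and 10.5% at Pd21. The share for sums of genes was not computed. The 8 stromal and mesenchymal markers, led by Mfap4, summed to 176, 248 and 233 FPKM in F1-Control and 468, 458 and 349 FPKM in F1-HHcy at Pd3. At Pd7 they summed to 481, 561 and 492 FPKM against 518, 539 and 357 FPKM, and at Pd21 to 300, 358 and 458 FPKM against 367, 217 and 269 FPKM. At Pd3, 7 of 7 tested had positive fold changes, with a median of 0.89. Pdgfra, Mfap4 and Nr2f2 were called, against 3.07% of all genes. With no filter, or without F1-Control replicate 1, 0 genes were called at Pd3. The marker calls of that day, here and below, were therefore lost in both fits. At Pd7, 3 were positive and 4 negative (median -0.48) and Nr2f2 was called higher, against 5.88% of all genes. At Pd21, 6 of 7 were negative (median -0.25) and Clec3b was called lower, against 2.23% of all genes. The diet groups of this sum were apart at Pd3 only.

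The 8 smooth muscle and pericyte markers, led by Acta2, summed to 111, 110 and 155 FPKM in F1-Control and 412, 314 and 76.7 FPKM in F1-HHcy at Pd3, so replicate 3 lay below all F1-Control libraries. At Pd7 they summed to 383, 440 and 679 FPKM against 523, 660 and 594 FPKM, and at Pd21 to 535, 1085 and 609 FPKM against 412, 461 and 604 FPKM. At Pd3, 8 of 8 were positive with 0 called by limma or limma-voom (2 at an unadjusted p under 0.05, against 22.4% of all genes). At Pd7, 4 were positive and 4 negative with 0 called by either tool (2 at an unadjusted p under 0.05, against 31.5%). At Pd21, 7 of 8 were negative and Des was called lower, against 2.23% of all genes. From Pd3 to Pd7 in F1-Control 7 of 8 were called higher, against 6.03% of all genes.

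The 6 theca and steroid-producing cell markers, led by Hsd3b1, summed to 120, 98.4 and 152 FPKM in F1-Control and 679, 349 and 71.3 FPKM in F1-HHcy at Pd3. At Pd7 they summed to 216, 286 and 449 FPKM against 1162, 1195 and 1136 FPKM, and at Pd21 to 1117, 583 and 1020 FPKM against 1263, 1772 and 670 FPKM. At Pd7 the groups were far apart, and replicate 3 of F1-HHcy at Pd3 was again the lowest of its group. The Pd3 sums were mostly Hsd3b1, at 110, 88.8 and 143 FPKM in F1-Control and 604, 340 and 61.6 FPKM in F1-HHcy. Only 2 of the 6 theca markers were tested at Pd3, 1 positive and 1 negative. The 7 erythroid markers, led by Hbb-bs, were lower in F1-HHcy at Pd3 and Pd7. They summed to 11288, 6407 and 3941 FPKM in F1-Control against 862, 1108 and 784 FPKM at Pd3, to 5791, 1555 and 925 FPKM against 287, 502 and 430 FPKM at Pd7, and to 109, 554 and 270 FPKM against 211, 159 and 997 FPKM at Pd21.

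The 8 oocyte markers, led by Zp2, summed to 666, 745 and 891 FPKM in F1-Control and 1178, 1555 and 1115 FPKM in F1-HHcy at Pd3. There Gdf9 and Zp3 were called higher, against 1.64% of all genes, although 5 of 8 were negative. At Pd7 the oocyte markers summed to 1263, 2069 and 1499 FPKM against 792, 665 and 1097 FPKM, with a median of -1.16. Sohlh1, Figla, Ddx4, Zp2 and Nobox were called lower, 5 of 8 against 5.98% of all genes, and limma-voom also called 5. With no filter 91 genes were called at Pd7 in place of 1577, and 493 to 1845 when 1 library was left out. Which marker calls of Pd7 were kept in those fits was not recorded. At Pd21 the oocyte sums overlapped. The 6 surface epithelium markers, led by Krt19, were lower in F1-HHcy at Pd7, at 656, 752 and 445 FPKM against 295, 390 and 192 FPKM. There 4 of 6 were called, Krt7, Krt18, Krt19 and Upk1b, against 11.9% of all genes. At Pd21 their sums were also lower, at 428, 351 and 430 FPKM against 220, 108 and 231 FPKM. Krt18 was called there by limma, against 2.23% of all genes, and 0 of 6 by limma-voom. At Pd3 these sums overlapped. The 8 granulosa cell markers summed to 282, 267 and 264 FPKM against 512, 356 and 303 FPKM at Pd3, where 3 of 6 tested were positive and 3 negative (median 0.01) and Amh and Inha were called higher by limma (1 gene by limma-voom), against 1.64% of all genes. At Pd7 they summed to 274, 302 and 510 FPKM against 539, 509 and 820 FPKM, a narrow overlap. There 6 of 8 were positive (median 0.53), and limma called Inha higher, against 5.88% of all genes, and limma-voom 0 of 8. The granulosa sums also overlapped at Pd21.

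The 6 endothelial markers, led by Emcn, were apart at Pd3 alone, at 35.7, 49.8 and 47.7 FPKM against 90.1, 74.2 and 62.6 FPKM, and none was called on any day. The 6 macrophage markers, led by C1qb, summed to 24.3, 29.3 and 23.1 FPKM against 33.5, 33.6 and 30.9 FPKM at Pd3 and to 41.2, 46 and 33 FPKM against 27.1, 29.7 and 26.4 FPKM at Pd7, apart on both days, with none called. Being apart was common, as 27.9% of all single genes were at Pd3 and 39% at Pd7. The 6 adipocyte markers, led by Fabp4, summed to 1.07, 3.68 and 1.08 FPKM against 9.56, 11.4 and 4.08 FPKM at Pd3 and to 4.86, 10.5 and 16.3 FPKM against 16.5, 23.2 and 25.6 FPKM at Pd7, apart on both days. At Pd3 only 1 of the 6 was tested, and the sums were mostly Fabp4, at 0.955, 3.41 and 0.862 FPKM against 5.85, 8.22 and 3.58 FPKM. At Pd7 Fabp4 alone overlapped, at 3.52, 8.56 and 12.1 FPKM against 7.43, 13.2 and 9.86 FPKM. At Pd21 the adipocyte sums went the other way, at 101, 53.6 and 317 FPKM against 81.7, 15.1 and 7.65 FPKM, with overlap and 0 of 5 called by limma or limma-voom (4 at an unadjusted p under 0.05, against 6.85% of all genes). The 6 multiciliated cell markers, led by Rsph1, summed to 208, 55.7 and 108 FPKM against 8.2, 4.62 and 4.87 FPKM at Pd21. No count of calls is given for the theca, erythroid, adipocyte (Pd7) and multiciliated lists, since some of their genes passed the filter only or mostly through the group where they were high. No marker in these lists was at 0 in all libraries, and the part of these cells in the proteoglycan results was not tested.

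**Figure D4:**
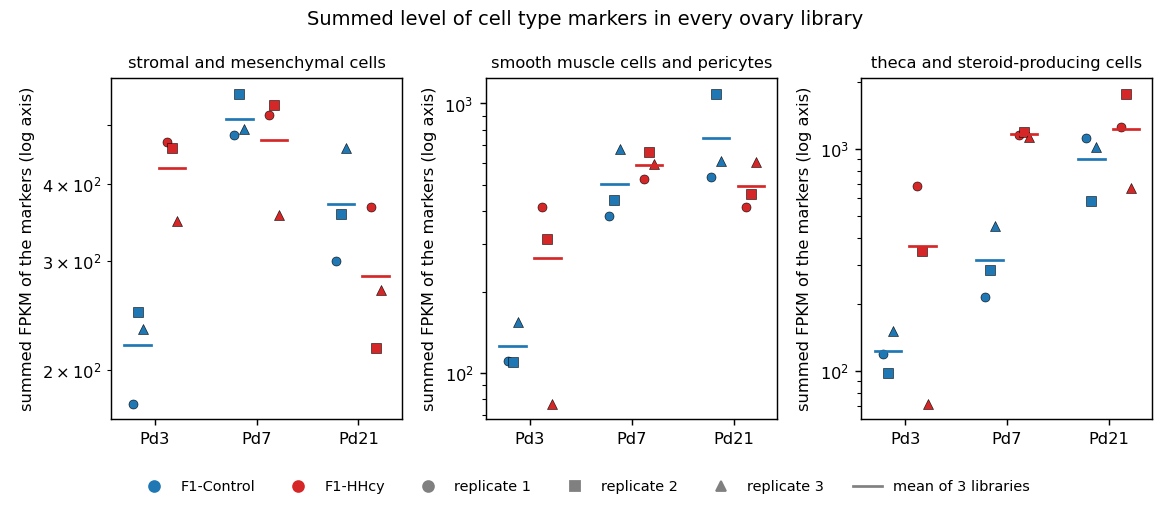
Summed FPKM of marker lists (vertical axis, log scale) in each of the 18 libraries by diet and day. The theca and steroid-producing cell sum lies at 216 to 449 FPKM in F1-Control and 1136 to 1195 FPKM in F1-HHcy at Pd7.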

How the data were processed

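The deposited values of 18 ovary libraries (6 groups of 3) were read as FPKM, a unit that the files do not name. Per the submitters' processing notes, the authors checked reads with FastQC 0.11.9, trimmed them with Trimmomatic 0.39, aligned them to GRCm38 (mm10) with STAR 2.7.9a, counted them with featureCounts 2.0.1 of Subread and used DESeq2 1.36.0. The FPKM unit was tested on the values: after division by 1 step per gene and library, all 17779 genes above 0 in every library gave whole fragments within 0.02.

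Genes at 1 FPKM or more in at least 3 libraries of a fit were tested in R 4.3.3 with limma 3.58.1, with a trended variance, on log2(FPKM + 1), with p-values adjusted by Benjamini-Hochberg over all genes tested. Diet groups were compared within each day on 6 libraries, Pd3 and Pd7 in a model of 12 libraries, and Pd21 with the earlier days in a model of 18. Confidence intervals are at 95%. The tests were tried on simulated data. Tables and correlations were made in Python 3.11.15 using pandas 2.3.3 with numpy 2.4.6, and plots with matplotlib 3.10.9. Promoters, gene positions and build GRCm38.p6 are those of RefSeq.

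Other settings tried were 0.1 as the pseudocount, every gene above 0 in at least 1 library (no filter), 1 model of all 18 libraries, a block for the replicate number, median-ratio scaling, leaving out mitochondrially encoded and hemoglobin genes, limma-voom on fragments recovered from the values, the study's criterion, and leaving out each library. Besides the 9 genes, the text names from each pathway list the 2 tested genes with the highest mean and the 2 with the smallest p in any diet comparison, and for 8 of the 9 the 3 genes most correlated with each. Other genes of these lists and of the marker lists, the neighbouring Cenpp and Gm4117 and the scarcely expressed Kera, Epyc and Optc were named after their values were seen. The 9 genes and the lists were chosen with earlier results of these data known.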

Additional observations from a re-analysis of the deposited data

Results flagged for a closer look

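The diet effect, F1-HHcy over F1-Control, differed between days for 3 of the 9 genes by limma's test of the difference. Their adjusted p-values were under 0.05. The difference was called for 2 of 9 between Pd3 and Pd21, against 4.59% of 14607 genes. It was called for 1 between Pd7 and Pd21, against 3.89%, and for 0 between Pd3 and Pd7, against 0.514% of 13998. For Dcn the log2 effect at Pd21 minus that at Pd3 was -1.51, with effects of 0.83 at Pd3 and -0.68 at Pd21 (adjusted p = 0.0197, with 0.00649 to 0.0824 over 24 alternatives). For Ogn the difference between the same days was -1.90, from 1.86 to -0.04, the latter a sign that flipped to 0.02 with median-ratio scaling (adjusted p = 0.0305, with 0.000133 to 0.0886). For Omd the difference was between Pd7 and Pd21, at -1.97, from 2.17 to 0.20 (adjusted p = 0.0339, with 0.00449 to 0.102). Pd21 is in another batch than the earlier days, so age and batch cannot be told apart in these differences. Groups of 3 libraries were not tested for single outlying samples.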

How the results depend on the processing

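Over alternatives other than leaving out a library, 542 of 612 fold changes of single genes kept their direction and side of the threshold, 56 lost the call, 12 gained it and 2 changed sign. Over left-out libraries these counts were 717 of 915, 149, 28 and 21. Ptx3 gave no value without any 1 of the F1-HHcy Pd7 libraries, where it missed the filter. Counts of calls that moved by over 1.5 times are given here with the genes of the group first and all genes second. Where no cause is stated, the cause was not tested.

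With no filter on low values, which about doubles the genes tested, calls were 0 and 0 at Pd3, 1 and 91 at Pd7, 37 genes at Pd21, 4 and 691 from Pd3 to Pd7 in F1-Control, and 1 and 241 in F1-HHcy. Differences of diet effects were then called for 32 genes between Pd3 and Pd7, for 1 of the 9 between Pd3 and Pd21 and for 0 of the 9 between Pd7 and Pd21. The study's cut-offs, put on the limma values and with no adjusted p, gave 7 and 1293 at Pd3, 1 and 686 at Pd21, 4 and 1703 from Pd3 to Pd7 in F1-HHcy, and 3 and 1625, 8 and 1904, and 3 and 2231 for the differences between Pd3 and Pd7, Pd3 and Pd21, and Pd7 and Pd21. With all 18 libraries in 1 model, calls were 6 and 881 at Pd3, 498 genes at Pd21 and 1 of the 9 for the difference between Pd3 and Pd7. With limma-voom, 378 genes were called from Pd3 to Pd7 in F1-HHcy, and 382 and 259 genes for the differences between Pd3 and Pd21 and between Pd7 and Pd21.

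With the replicate number as a block, calls were 0 and 1 at Pd3, 294 genes from Pd3 to Pd7 in F1-HHcy, 2 and 40 for the difference between Pd3 and Pd7, and 0 of the 9 for that between Pd7 and Pd21. The replicate numbers do not pair the samples of the block: across genes, deviations from the group mean of libraries with the same number correlated at -0.15, -0.14 and -0.20 on Pd3, at 0.06, -0.11 and 0.09 on Pd7 and at -0.16, -0.12 and -0.34 on Pd21, and not every library correlated best with its own number.

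Without each library in turn, calls ranged at Pd3 from 0 to 9 and 0 to 2824, at Pd7 from 2 to 5 and 493 to 1845, and at Pd21 from 1 to 185 genes. They ranged from 2 to 8 and 249 to 2898 from Pd3 to Pd7 in F1-Control and from 0 to 4 and 0 to 1987 in F1-HHcy. For differences of diet effects they ranged from 0 to 3 and 0 to 447 between Pd3 and Pd7, 0 to 7 and 212 to 1258 between Pd3 and Pd21, and 0 to 2 and 187 to 1170 between Pd7 and Pd21. Where a left-out library leaves 2 in its group, the fit pools the spread of all groups.

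These fold changes changed sign. At Pd21 median-ratio scaling gave 0.0198 for Ogn and 0.00513 for Prelp, and left-out libraries gave -0.25 to 1.46e-05 for Lum, -0.18 to 0.11 for Ogn, -0.11 to 0.40 for Omd, -0.20 to 0.23 for Prelp, -0.36 to 0.15 for Aspn and -0.28 to 0.35 for Vcan. From Pd3 to Pd7 in F1-HHcy they gave -0.14 to 0.23 for Lum and -0.0269 to 0.61 for Prelp. For differences of diet effects they gave -0.0442 to 0.34 for Fmod between Pd3 and Pd7 and -0.11 to 0.38 for Dcn between Pd7 and Pd21.

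Depth limits Omd most: in F1-Control at Pd3 it rests on 55 to 77 fragments per library, where counting error is not small beside the spread between libraries.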
